A study of Mus musculus with 8 samples.

Results

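The 10 genes described here encode receptor subunits for neurotrophic cytokines and for prolactin: Cntfr, Lifr, Il6st and Osmr of the ciliary neurotrophic factor (CNTF) and leukemia inhibitory factor (LIF) family, Ret with Gfra1, Gfra2, Gfra3 and Gfra4 of the glial cell line-derived neurotrophic factor (GDNF) family, and Prlr. They were taken by gene symbol, and all 10 had a row among the 23284 genes of the count tables. The set was put together with the KO over Het fold changes of these libraries in view, and these count as the values it was selected on. The differences of the 10 genes between KO and Het are therefore given as a description, without p-values. Which of them the fits over all genes called is listed once, beside the share of all genes called, and supports nothing. RNA was sequenced from pancreatic endocrine cells of mice at embryonic day 17, sorted by flow cytometry for the Rosa-Tomato reporter that Neurog3-Cre switches on.

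The KO libraries (4, replicates 8, 9, 17 and 24) were Neurod1floxed/floxed, Neurog3Cre+ and RosaTomato+, and the Het libraries (4, replicates 6, 7, 13 and 19) were Neurod1floxed/wt with the same Cre and reporter. The strain is given as C56BL/J for all of them. Neurod1 encodes a transcription factor that endocrine cells and neurons use. Both groups carry Cre, the reporter and at least 1 floxed allele, so the contrast is between loss of both alleles and loss of a single allele, in cells descended from Neurog3-expressing endocrine precursors. The labels do not say whether replicates came from separate animals. SDs describe the spread between these libraries, and p-values set the group difference against a dispersion estimated from them. Whether either extends to other animals of these genotypes cannot be told.

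CNTF binds the CNTF receptor subunit made from Cntfr, which is anchored in the membrane and has no kinase or signalling domain of its own. The signal passes through gp130 (Il6st) and the LIF receptor (Lifr) to JAK kinases and STAT3. GDNF-family ligands likewise bind a membrane-anchored co-receptor (Gfra1 to Gfra4) that brings them to the receptor tyrosine kinase Ret, and Gfra3 is the co-receptor for artemin. Prlr is a cytokine receptor that signals through JAK2 and STAT5, and in beta cells prolactin and placental lactogens act through it during pregnancy.

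The libraries held 10.35 M to 16.1 M counts over 15443 to 16538 detected genes. Neurod1 itself stood at 2.55, 12.9, 22.2 and 21.5 CPM (counts per 1 M of the scaled library size) in KO replicates 8, 9, 17 and 24, against 133, 138, 141 and 210 CPM in Het replicates 6, 7, 13 and 19. KO replicate 8 stood apart: the 11 mesenchyme markers summed to 9893 CPM there, against 382 to 546 CPM in the other KO libraries and 270 to 1250 CPM in Het, and all 11 were highest in it. The 8 leukocyte markers with a row summed to 20.1 to 489 CPM in KO and to 22.9 to 67.5 CPM in Het. The highest sum was again in KO replicate 8, but the other KO libraries reached up to 287 CPM, also above the Het range. The 11 acinar markers summed to far more, 13453 to 46151 CPM in KO and 10306 to 32239 CPM in Het, ranges that overlapped. KO replicate 8 held 15147 CPM of them. The part of acinar cells in the receptor levels was not tested. Y-linked genes summed to between 414 and 497 CPM in KO replicates 8, 9 and 24 and Het replicate 7, and to at most 0.442 CPM in the other 4 libraries. The 10 beta-cell markers summed to between 6951 and 14249 CPM in KO and between 27800 and 50006 CPM in Het, and the 8 alpha-cell markers to between 15256 and 25896 CPM in KO and between 35682 and 36859 CPM in Het, and Ins2, Gcg and Sst, for insulin, glucagon and somatostatin, were detected in every library.

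Of the 10 genes, 8 passed the filter on low counts and 2, Osmr and Gfra4, did not. In 4 of the 8 (Cntfr, Prlr, Gfra3 and Ret) every KO library lay below every Het library, an arrangement that 4.48% of the 14116 genes tested showed in that direction, 3.55% in the opposite one and 8.03% in either. In the other 4 (Il6st, Lifr, Gfra1 and Gfra2) the groups overlapped. Cntfr and Gfra3 were called lower by edgeR's quasi-likelihood test over all genes (adjusted p under 0.05), where 0.68% of all genes tested were called lower, and none of the 8 was called higher, where 0.34% of all genes were. The calls differed with the tool, the scaling, a covariate and single libraries. With total-count scaling, where 128 of the 14116 genes were called, only Cntfr was called among the 8. With the mesenchyme covariate, where 553 of the 14116 were called, Cntfr, Gfra3, Ret and Prlr were. DESeq2, which called 3.71% of all genes it tested, called Cntfr, Gfra3, Ret and Prlr lower and Osmr higher, and limma-voom with quality weights, which called 3.54%, called Cntfr, Gfra3, Ret and Prlr. Without KO replicate 8, where edgeR called 1.99% of all genes, the same 4 were called, and without Het replicate 19, where it called 0.462%, Prlr was. None was called without KO replicate 9, 17 or 24, where 0.319%, 0.312% and 0.352% of all genes were called, or without Het replicate 6, 7 or 13, where 0.332%, 0.264% and 0.201% were. Since results of this contrast chose the set, nothing is read from these counts.

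**Figure D1:**
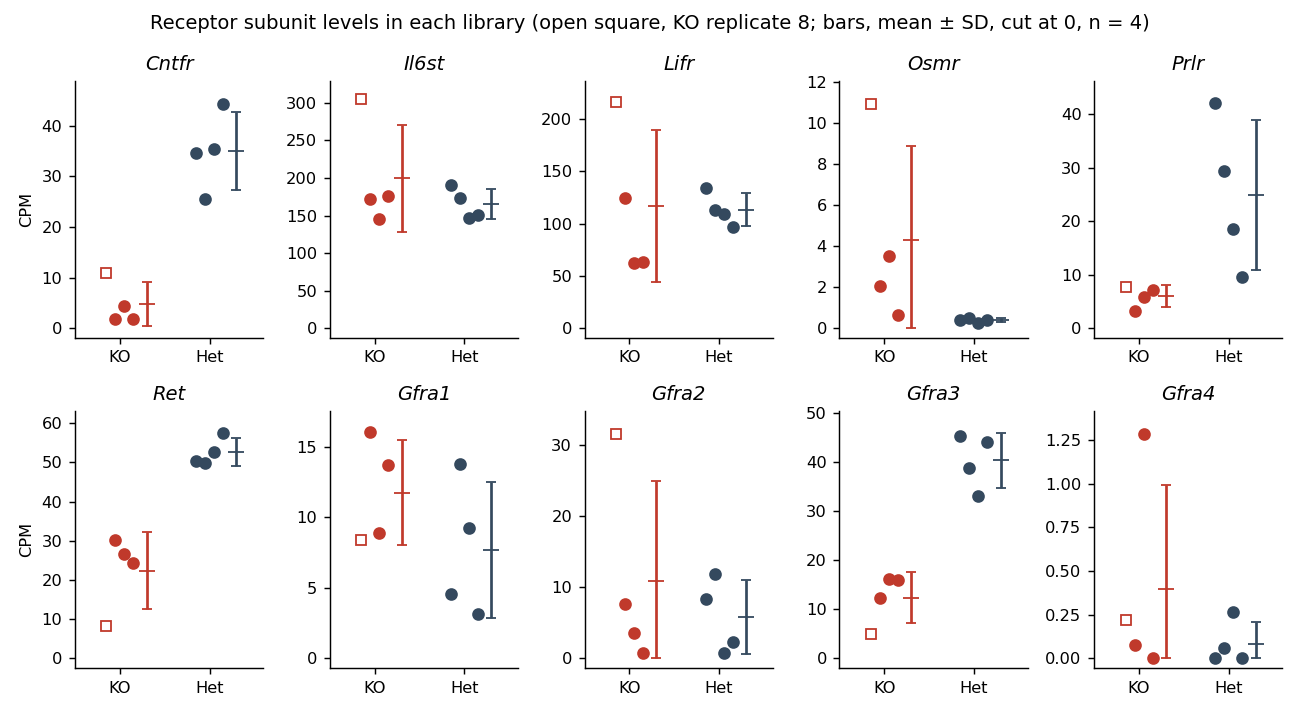
Level of each of the 10 receptor genes in CPM (vertical axes, each with its own scale) in the 4 KO libraries (red) and the 4 Het libraries (blue-grey), with KO replicate 8 as an open square and the mean ± SD beside the points, cut at 0. Cntfr, Prlr, Ret and Gfra3 lie lower in all KO libraries, and Il6st, Lifr, Osmr and Gfra2 are highest in KO replicate 8.

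Cntfr, the CNTF-binding subunit, had 11.0, 1.91, 4.37 and 1.89 CPM in KO replicates 8, 9, 17 and 24, against 34.5, 25.5, 35.4 and 44.3 CPM in Het replicates 6, 7, 13 and 19. KO replicate 8 was the highest KO library and still lay below the lowest Het library. The means were 4.79 ± 4.30 CPM in KO and 34.9 ± 7.70 CPM in Het (SD, n = 4 each), so that the KO mean was 13.7% of the Het mean. The log2 fold change was −2.85 (SE 0.54), and −3.67 without KO replicate 8, where the KO mean was 2.72 ± 1.43 CPM (SD, n = 3). The raw counts behind these values were 21 to 151 in KO and 401 to 447 in Het. In sorted pools fewer cells of a type and less RNA per cell cannot be told apart, and the summed beta-cell and alpha-cell markers given above were also lower in every KO library. Their part in the differences of Cntfr, Prlr, Gfra3 and Ret was not tested.

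The signalling partners of Cntfr showed another arrangement. Il6st, which encodes gp130, the signal-transducing subunit shared by this cytokine family, had 305, 172, 146 and 176 CPM in KO replicates 8, 9, 17 and 24 and 190, 173, 147 and 151 CPM in Het replicates 6, 7, 13 and 19. The groups overlapped, and only KO replicate 8 lay above the Het range. Its log2 fold change was 0.27 (SE 0.22), or −0.02 without KO replicate 8. Lifr, the second signalling subunit of the CNTF and LIF receptors, had 216, 124, 62.8 and 63.4 CPM in the KO libraries and 134, 113, 109 and 97.0 CPM in the Het libraries in the same order. KO replicates 17 and 24 lay below all Het libraries and KO replicate 8 above them, with a log2 fold change of 0.04 (SE 0.36), or −0.45 without KO replicate 8. The Cntfr to Il6st ratio of CPM was 0.0107 to 0.0361 in KO and 0.147 to 0.294 in Het, and the Cntfr to Lifr ratio was 0.0154 to 0.0696 in KO and 0.226 to 0.457 in Het. Cntfr itself was lower in every KO library, which lowers both ratios there.

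Osmr, the oncostatin M receptor subunit that pairs with gp130, did not pass the filter, because only 3 libraries reached its level. It had 150, 26, 47 and 7 counts in KO replicates 8, 9, 17 and 24 (10.9, 2.07, 3.54 and 0.629 CPM), against 5, 8, 3 and 4 counts in Het replicates 6, 7, 13 and 19 (0.386, 0.495, 0.265 and 0.406 CPM). Every KO library lay above every Het library, KO replicate 24 by the least. The mean was 4.29 ± 4.58 CPM in KO and 0.388 ± 0.0945 CPM in Het (SD, n = 4 each), 11.1-fold higher in KO, and 5.37-fold without KO replicate 8. KO replicate 8, with the mesenchyme markers at their highest, held 22.1 times the median of the other 7 libraries, and the part of the cells behind those markers was not tested. Osmr and Lifr are direct neighbours on mouse chromosome 15, with no protein-coding gene between them, and Prlr lies further along the same chromosome with 17 protein-coding genes between it and Lifr.

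**Figure D2:**
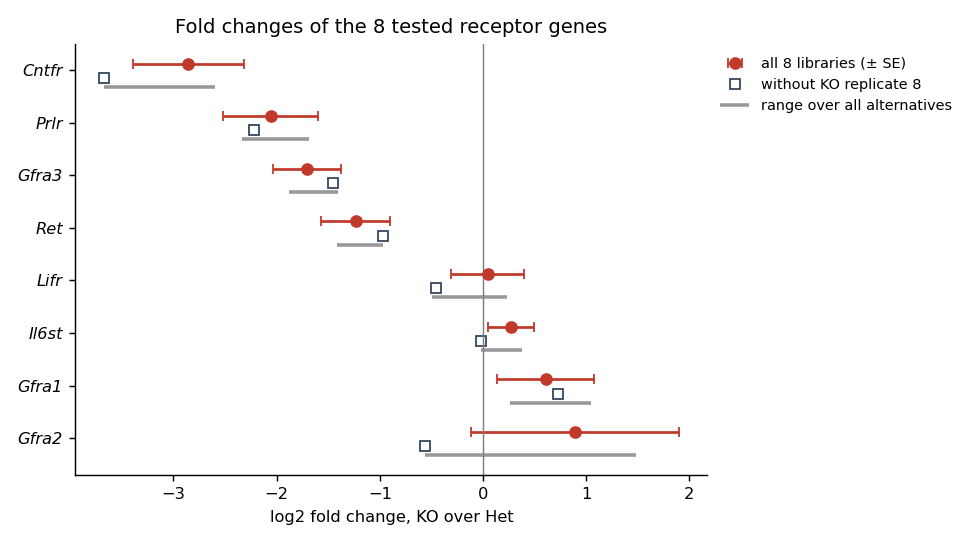
Log2 fold change, KO over Het (horizontal axis), of the 8 receptor genes that passed the filter, with all 8 libraries (red, ± SE), without KO replicate 8 (open square) and as the range over all alternative settings (grey line). Cntfr, Prlr, Gfra3 and Ret stay below 0 in every setting, whereas Lifr, Il6st and Gfra2 lie on both sides of 0.

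In the GDNF family, Ret, the receptor tyrosine kinase, and Gfra3, the artemin co-receptor, were both lower in KO. Ret had 8.16, 30.3, 26.5 and 24.4 CPM in KO replicates 8, 9, 17 and 24, against 50.3, 49.9, 52.7 and 57.6 CPM in Het replicates 6, 7, 13 and 19. The Het libraries lay within 1.15-fold of each other, and KO replicate 8 was far below the other KO libraries. Ret averaged 22.4 ± 9.78 CPM in KO and 52.6 ± 3.53 CPM in Het (SD, n = 4 each), a log2 fold change of −1.24 (SE 0.33), or −0.97 without KO replicate 8. Gfra3 had 5.03, 12.3, 16.1 and 16.1 CPM in the KO libraries and 45.5, 38.8, 33.2 and 44.1 CPM in the Het libraries, in the same order of replicates. It averaged 12.4 ± 5.22 CPM in KO and 40.4 ± 5.59 CPM in Het, 30.6% of the Het mean, with a log2 fold change of −1.71 (SE 0.33), or −1.45 without KO replicate 8.

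Ret and Gfra3 followed each other across the libraries. Both were lowest in KO replicate 8, and the ratio of Gfra3 to Ret in CPM was 0.405 to 0.658 in KO and 0.63 to 0.905 in Het, ranges that overlapped. After each gene's log2 CPM was centred on its mean over the 8 libraries, the root mean square difference between Gfra3 and Ret was 0.32, the smallest of the 28 pairs among the 8 genes, followed by 0.36 for Il6st and Lifr. Both pairs share the depth and make-up of the same libraries. The set was also selected with the KO over Het fold changes in view. Gfra3 and Ret were both lower in KO, which brings their patterns closer, so nothing is read from their distance. Cntfr stood further from Ret (1.51), Gfra3 (1.34) and Prlr (1.12).

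**Figure D3:**
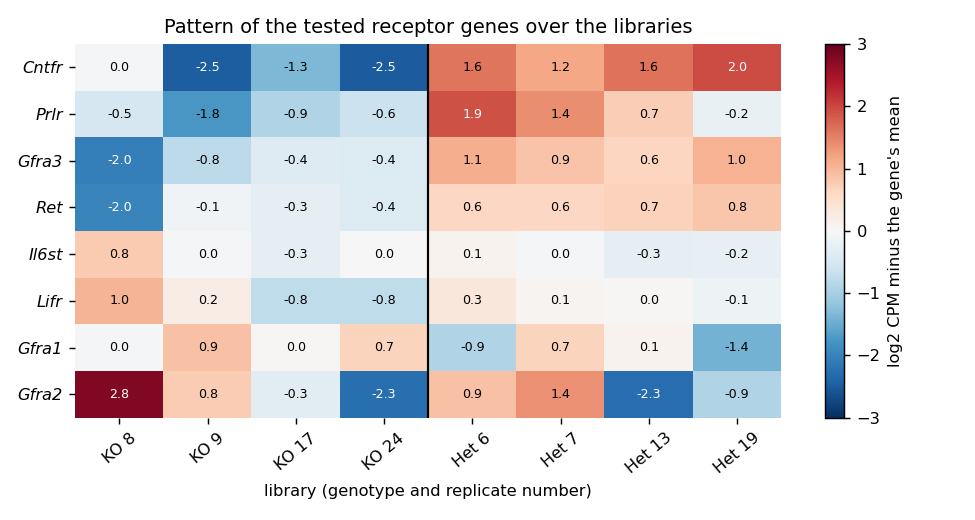
Log2 CPM of the 8 tested receptor genes in each library, each gene centred on its own mean (color scale in log2 units; KO libraries left of the line, Het libraries right). Ret and Gfra3 share their lowest value in KO replicate 8, where Gfra2, Lifr and Il6st have their highest.

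Gfra1, the co-receptor for GDNF, and Gfra2, the co-receptor for neurturin, did not separate the groups. Gfra1 had 8.38, 16.0, 8.90 and 13.7 CPM in KO replicates 8, 9, 17 and 24 and 4.56, 13.8, 9.27 and 3.14 CPM in Het replicates 6, 7, 13 and 19, with a log2 fold change of 0.61 (SE 0.47). It was 0.34 without Het replicate 19 and 1.051 without Het replicate 7. Het replicate 7 lay above all KO libraries but replicate 9. Gfra2 had 31.5, 7.66, 3.54 and 0.809 CPM in KO and 8.42, 11.8, 0.795 and 2.33 CPM in Het, a 38.9-fold range among KO libraries and a 14.9-fold range among Het libraries. Its log2 fold change of 0.89 (SE 1.01) became −0.57 without KO replicate 8, which held 8.88 times the median of the other libraries. Gfra4, the co-receptor for persephin, had 3, 1, 17 and 0 counts in KO replicates 8, 9, 17 and 24 and 0, 1, 3 and 0 counts in Het replicates 6, 7, 13 and 19. Only KO replicate 17, at 1.28 CPM, held more than the 3 counts that a count of 0 still allows, and a fold change is not given.

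The Gfra1 to Ret ratio in CPM was 0.335 to 1.03 in KO and 0.0546 to 0.276 in Het, ranges that did not overlap. Ret, the denominator, was itself lower in every KO library, which raises the ratio there. The set was selected with such differences in view, so nothing is read from this separation. The Gfra2 to Ret ratio was 0.0331 to 3.86 in KO and 0.0151 to 0.236 in Het, ranges that overlapped. Its highest value was in KO replicate 8, without which the KO range was 0.0331 to 0.253. GDNF-family receptors are also made by nerve and glial cells, so markers of those cells were followed. The 8 Schwann-cell and neural-crest markers summed to 32.4 to 49.2 CPM in KO and 21.4 to 66.6 CPM in Het. The 9 enteric and autonomic neuron markers summed to 32.8 to 48.4 CPM in KO and 40.3 to 57.6 CPM in Het, with Chat at 0 in all libraries, and the part of such cells in the receptor levels was not tested.

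Prlr had 7.80, 3.19, 5.88 and 7.10 CPM in KO replicates 8, 9, 17 and 24, against 42.1, 29.5, 18.6 and 9.53 CPM in Het replicates 6, 7, 13 and 19. The groups did not overlap, but Het replicate 19 was close to KO replicate 8, and the Het libraries spread over 4.42-fold, against 2.44-fold in KO. The mean was 5.99 ± 2.03 CPM in KO and 24.9 ± 14.0 CPM in Het (SD, n = 4 each), a log2 fold change of −2.06 (SE 0.46), or −2.22 without KO replicate 8. The smallest change with a single library left out was −1.68, without Het replicate 6, and the largest −2.33, without Het replicate 19. KO replicate 8 was unremarkable for Prlr, at 0.818 times the median of the other libraries.

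The libraries with Y-linked reads were 3 KO and 1 Het, and those without were 1 KO and 3 Het. Within the first class Cntfr averaged 4.93 CPM in KO and stood at 25.5 CPM in Het, and within the second it stood at 4.37 CPM in KO and averaged 38.1 CPM in Het. Prlr gave 6.03 CPM in KO and 29.5 CPM in Het in the first class, and 5.88 CPM in KO and 23.4 CPM in Het in the second. Gfra3 gave 11.1 CPM in KO and 38.8 CPM in Het in the first, and 16.1 CPM in KO and 40.9 CPM in Het in the second. Ret gave 21.0 CPM in KO and 49.9 CPM in Het in the first, and 26.5 CPM in KO and 53.5 CPM in Het in the second. Each of these comparisons has a single library on 1 side, and the genes were selected on the difference, so nothing is read from it. The part of sex in the differences was not tested. With Y-linked expression as a covariate, their log2 fold changes were −2.75, −2.14, −1.57 and −1.13, and none of the 8 genes was called, where 0.198% of all genes were.

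Set against each other per kilobase of merged exon, the genes had another order in the 2 genotypes. In KO, Il6st came first at 18.2 CPM per kb, followed by Lifr (11.2), Gfra3 (6.20), Ret (3.31), Gfra2 (3.07), Gfra1 (2.53), Cntfr (2.33), Osmr (0.782), Prlr (0.457) and Gfra4 (0.255), and the ranges of all neighbours in this order overlapped. In Het, Gfra3 came first at 20.2 CPM per kb, followed by Cntfr (16.97), Il6st (15.1), Lifr (10.9), Ret (7.78), Prlr (1.90), Gfra1 (1.66), Gfra2 (1.65), Osmr (0.0706) and Gfra4 (0.0526). The ranges of the first 3 overlapped from neighbour to neighbour. Those of Il6st and Lifr, of Lifr and Ret, of Ret and Prlr, and of Gfra2 and Osmr did not. Cntfr took the second place in Het libraries and the seventh in KO libraries. Without KO replicate 8 it was sixth in KO at 1.32 CPM per kb, ahead of Gfra2 at 1.13. The set was selected with the KO over Het differences in view, and these change the order, so nothing is read from the change. Exon lengths came from a later annotation than the counts, and annotated transcripts that these cells do not use lower the value of a gene.

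**Figure D4:**
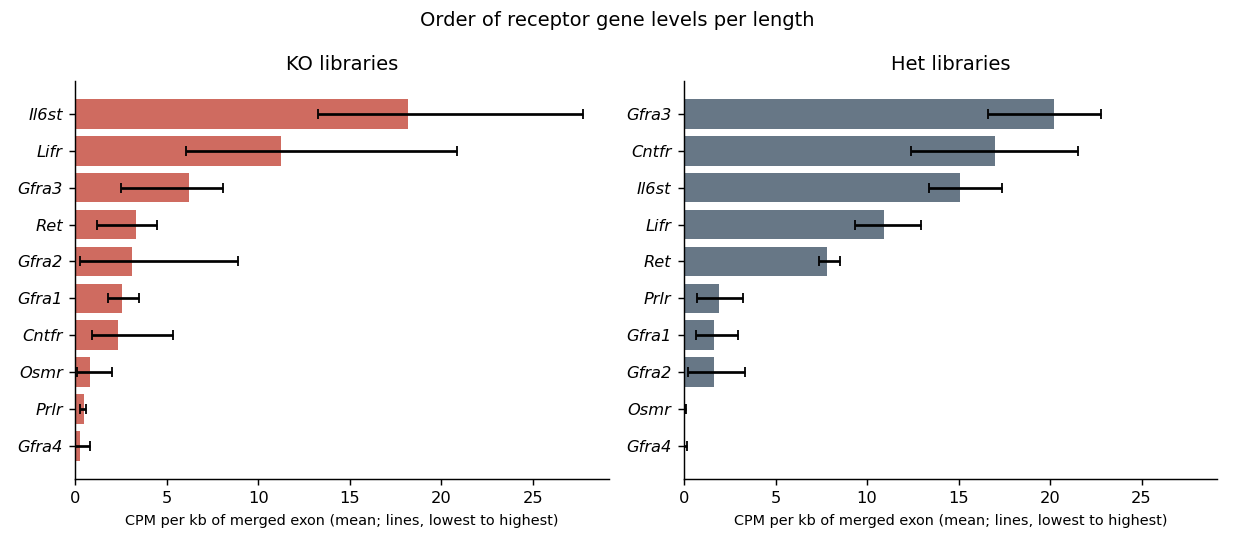
Mean level per kilobase of merged exon of the 10 receptor genes in the KO libraries (left) and the Het libraries (right), each in descending order, with lines from the lowest to the highest of 4 libraries. Il6st leads in KO at 18.2 CPM per kb, and Gfra3 and Cntfr lead in Het at 20.2 and 16.97.

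The genes nearest to Cntfr in pattern were sought by the root mean square difference of centred log2 CPM over the 8 libraries. Unnamed gene models were left out of the search and of the medians. The nearest to Cntfr were Vipr1 (0.54), Snph (0.65) and Trpm5 (0.66), against a median of 1.81 over the genes searched. Vipr1 is a receptor for vasoactive intestinal peptide, and Trpm5 is a calcium-activated cation channel. Snph encodes syntaphilin, a protein that anchors mitochondria in axons. For Prlr the nearest were Fam19a1 (0.31), P2ry1 (0.41), a purinergic receptor, and Hopx (0.44), a homeodomain protein, against a median of 1.24. For Ret they were Tnr (0.21), which encodes tenascin R, Cryba2 (0.24), a crystallin gene, and Pim2 (0.25), a serine/threonine kinase gene, against a median of 0.96. P2ry1 was at 82.0 CPM in KO and 315 CPM in Het, and Cryba2 at 45.4 CPM in KO and 119 CPM in Het. In each of the 9 genes every KO library lay below every Het library, which the choice of genes near Cntfr, Prlr and Ret brings with it.

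Promoter windows were used for 7 of the 10 genes (16 windows). Ret and Gfra2 had no window matched by symbol, and Gfra3 was left out by choice, not for lack of a match. The windows of Cntfr and Prlr are shown because these genes had the largest log2 fold changes among the 8 that were tested. Neurod1 and related factors bind E-boxes, of which CAGATG is a common form, read as CATCTG from the opposite strand. The windows run from 250 bases before to 50 after an annotated start (RefSeq, build GRCm38.p6). Of 6 Cntfr windows 1 held CAGATG or CATCTG, and of 3 Prlr windows 2 did, where 17.2% of 32851 windows of 300 bases held it on either strand. The looser form CANNTG, which includes both, was in 3 of the 6 Cntfr windows and in all 3 of Prlr, and in 72.3% of all windows. Some Cntfr windows overlapped, and windows 1 and 5 held the same CANNTG match, so the 6 are not separate promoters. The 3 windows with a match to CAGATG follow 5′ to 3′ on the gene's strand, with the match in capitals, and were picked for that match.
Cntfr window 6 (chr4:41689131-41689430, minus strand): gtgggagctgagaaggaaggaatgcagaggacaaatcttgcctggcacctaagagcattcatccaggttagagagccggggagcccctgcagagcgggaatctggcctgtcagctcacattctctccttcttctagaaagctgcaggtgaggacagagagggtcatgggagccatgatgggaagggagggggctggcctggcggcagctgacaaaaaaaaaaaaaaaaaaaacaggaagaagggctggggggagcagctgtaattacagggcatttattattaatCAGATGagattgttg
Prlr window 2 (chr15:10223656-10223955, plus strand): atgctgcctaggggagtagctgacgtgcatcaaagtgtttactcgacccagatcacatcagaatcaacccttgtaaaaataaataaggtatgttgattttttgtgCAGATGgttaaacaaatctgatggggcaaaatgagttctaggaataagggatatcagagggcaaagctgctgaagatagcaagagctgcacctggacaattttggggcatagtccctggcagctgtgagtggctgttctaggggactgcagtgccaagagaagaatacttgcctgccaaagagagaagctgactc
Prlr window 3 (chr15:10293401-10293700, plus strand): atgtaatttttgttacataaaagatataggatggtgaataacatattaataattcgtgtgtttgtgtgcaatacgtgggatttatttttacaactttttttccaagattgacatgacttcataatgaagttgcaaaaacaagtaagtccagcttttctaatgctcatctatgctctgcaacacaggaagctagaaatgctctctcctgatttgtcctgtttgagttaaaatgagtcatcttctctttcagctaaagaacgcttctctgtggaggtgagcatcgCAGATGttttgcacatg
The match in the Cntfr window lay at bases 36 to 41 after the start, and those of Prlr at bases −145 to −140 and 34 to 39. Prlr window 2 also held TTCTAGGAA at bases −110 to −102, a match to TTCNNNGAA, the palindrome bound by STAT factors, which 8.30% of all windows held. Of the other genes whose windows were used, Il6st, Lifr, Osmr and Gfra1 held neither CAGATG nor CATCTG, and 1 of the 2 windows of Gfra4 did. The gene counts do not show which start was used, and a match in letters is not a measured binding site.

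Beside the receptors, 105 genes for their ligands, partner receptors and signalling steps were followed, of which 74 passed the filter. None was called by edgeR, where 1.02% of all genes tested were called in either direction, and 11 had an unadjusted p under 0.05, as did 12.2% of all genes. Of the pathway genes, DESeq2 called 4 and limma-voom 5, with the shares of all genes given above. Their median log2 fold change was 0.14, against 0.03 over all genes tested, and 26 of the 74 were negative (35.1%, against 46.6% of all genes). KO replicate 8 was the highest library for 31 of the 74, against 22.7% of all genes tested, and without it the median was −0.02 and 38 of the 74 were negative.

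Ligand genes were low. Cntf had 8 counts over the 4 KO libraries and 48 over the 4 Het libraries, and Artn, which encodes the ligand of Gfra3, had 3 in KO and 7 in Het. Nrtn (42 in KO and 19 in Het) and Pspn (12 in KO and 4 in Het), for neurturin and persephin, were also under the filter. Gdnf averaged 4.34 ± 0.895 CPM in KO and 3.10 ± 0.483 CPM in Het (SD, n = 4 each), with a log2 fold change of 0.49 (SE 0.41, edgeR adjusted p = 0.675). None of the 5 tested ligands of the gp130 family passed (0 at an unadjusted p under 0.05), and the smallest p was that of Il11, for interleukin 11 (log2 fold change −1.46, SE 0.67, adjusted p = 0.419, edgeR), with −0.51 without Het replicate 6. Prl, for prolactin, had 51 counts over the KO libraries and 66 over the Het libraries. Its log2 fold change was −0.30 (SE 0.93, edgeR adjusted p = 0.931). Prl3d1, also in the lactogen list, had 0 counts in KO and 2 in Het. Growth hormone (Gh) and placental lactogen (Prl3b1) had no count in any library, which allows up to 3 counts, or 0.185 to 0.304 CPM, per library.

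Among 8 tested receptors related to gp130 or Prlr, none was called and 4 had an unadjusted p under 0.05. Il6ra, the interleukin 6 receptor subunit that recruits gp130, had the smallest p, at 22.3 ± 5.30 CPM in KO and 39.9 ± 7.03 CPM in Het (SD, n = 4 each), without overlap (log2 fold change −0.84, SE 0.22, adjusted p = 0.128, edgeR). Ghr, the growth hormone receptor and closest relative of Prlr in this list, was at 198 ± 27.4 CPM in KO and 270 ± 9.52 CPM in Het, also without overlap (log2 fold change −0.44, SE 0.13, adjusted p = 0.181, edgeR). Il4ra ran the other way, at 14.6 ± 9.42 CPM in KO and 5.61 ± 2.07 CPM in Het (log2 fold change 1.38, SE 0.49, adjusted p = 0.281, edgeR), with 27.9 CPM in KO replicate 8 and a log2 fold change of 0.84 without it. Ghr and Il4ra are named after their values were seen.

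Of 24 tested JAK-STAT genes 17 had a positive log2 fold change, as did 53.4% of all genes tested, and none was called. The list median was 0.19, or 0.09 without KO replicate 8, the highest library for 11 of the 24. Stat6, which acts downstream of interleukin 4, had the smallest p, at 29.99 ± 8.10 CPM in KO and 13.1 ± 4.16 CPM in Het without overlap (SD, n = 4 each), with a log2 fold change of 1.199 (SE 0.30, edgeR adjusted p = 0.110). Stat3, through which CNTF and LIF signal, was at 172 ± 22.0 CPM in KO and 201 ± 5.60 CPM in Het (−0.22, SE 0.13, adjusted p = 0.521, edgeR). Socs3, a feedback inhibitor that STAT3 induces, averaged 22.7 ± 31.7 CPM in KO and 9.42 ± 5.98 CPM in Het, with 69.9 CPM in KO replicate 8. Its log2 fold change was 1.26 (SE 0.96, edgeR adjusted p = 0.634) and −0.46 without that library. The STAT5 target genes Cish (0.45, SE 0.37) and Socs2 (0.96, SE 0.68) had adjusted p of 0.664 and 0.604 by edgeR. Socs2 stood at 33.6 CPM in KO replicate 8, and without it its log2 fold change was −0.16. That of Cish ran from 0.24 to 0.88 with a single library left out, lowest without Het replicate 19 and highest without Het replicate 7.

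Of 19 tested adaptors and effectors of Ret, none was called and 3 had an unadjusted p under 0.05. The docking protein gene Gab1 had the smallest p, at 117 ± 75.4 CPM in KO and 53.8 ± 10.3 CPM in Het (log2 fold change 1.12, SE 0.36, adjusted p = 0.223, edgeR), with 228 CPM in KO replicate 8 and a log2 fold change of 0.56 without it. Ncam1, a cell adhesion molecule that can bind GDNF co-receptors, was at 200 ± 17.6 CPM in KO and 168 ± 12.2 CPM in Het (0.25, SE 0.12, adjusted p = 0.435, edgeR). Of 9 tested lactogens and prolactin-responsive genes, the cyclin D2 gene Ccnd2 had the smallest p (280 ± 122 CPM in KO and 560 ± 181 CPM in Het; −0.9998, SE 0.31, adjusted p = 0.210, edgeR). Without KO replicate 8 Ccnd2 was called lower, at −1.36. Tph1, the serotonin-synthesis gene that prolactin raises in islets, was at 2.49 ± 0.999 CPM in KO and 2.41 ± 2.05 CPM in Het (0.05, SE 0.76), and lay between −0.32 and 0.71 with a single library left out.

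The neurotrophins and their own receptors were not called either, with 0 of 7 tested at an unadjusted p under 0.05 and a median of −0.08. Sorcs1, a sorting receptor, had the smallest p (log2 fold change 0.44, SE 0.28, adjusted p = 0.553, edgeR). Ntrk2, the receptor for brain-derived neurotrophic factor, was at 54.6 ± 52.8 CPM in KO and 77.2 ± 22.0 CPM in Het (−0.50, SE 0.51, adjusted p = 0.742, edgeR). KO replicate 8 held 133 CPM of it, and without that library it was called lower, at −1.45.

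**Figure D5:**
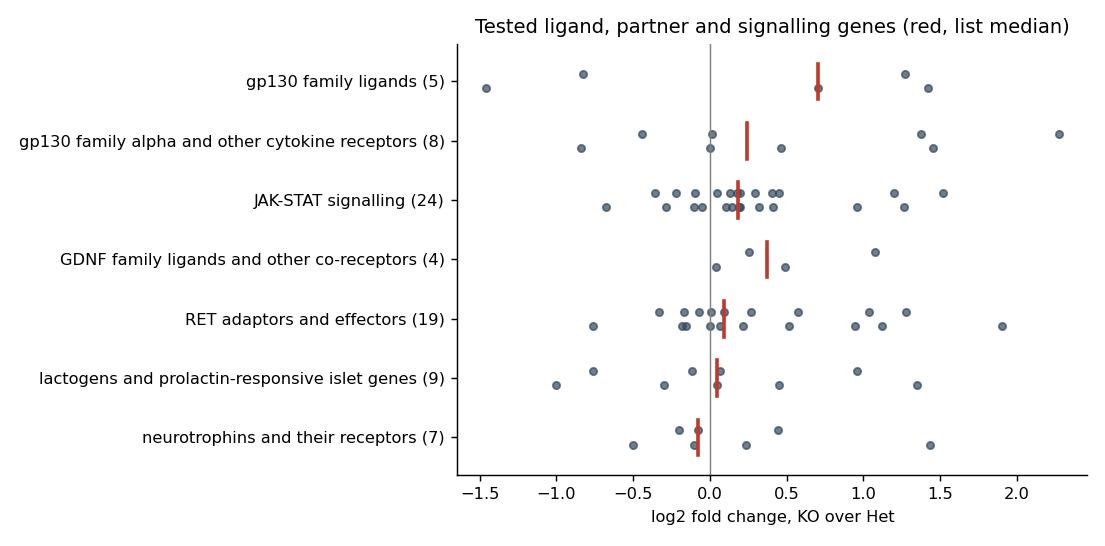
Log2 fold change, KO over Het (horizontal axis), of each tested gene in the 7 lists of ligands, partner receptors and signalling genes, with the number tested in parentheses and the list median in red. The points spread on both sides of 0, and the medians run from −0.08 for the neurotrophin list to 0.70 for the gp130 family ligands.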

How the data were processed

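Cells were sorted and RNA extracted, and 2.315 ng of RNA was amplified with the NuGEN Ovation V2 kit and sequenced as single-end reads of 100 bases, per the labels' protocols. The deposited counts are whole, unnormalized read counts per gene symbol. The build was mm9 and the tools TopHat2 2.1.0, bcl2fastq 1.8.4, DESeq and Cufflinks 2.0.2, per the submitters' processing notes. Which tool counted reads, and over which annotation, is not given in the sources used here. That kit does not mark strand, and 5 of the 10 genes (Gfra1, Gfra2, Gfra3, Gfra4 and Prlr) overlap another RefSeq gene, whose reads cannot be told apart. The authors also deposited a table with the mean signal (normalized counts) per group, the fold ratio, its log2 and p-values, per the file headers. Its log2 fold changes differed from those given here by at most 0.0092 in the 8 tested genes.

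Genes were kept by filterByExpr (minimum count 10, total 15; 14116 of 23284), scaled by TMM, and compared by the edgeR 4.0.16 quasi-likelihood F test, two-sided, without covariates, with Benjamini-Hochberg adjustment over all genes tested. SEs are the log2 fold change over the root of F. Centred log2 CPM used a prior count of 2. Cntfr, Gfra3, Ret, Prlr, Il6st, Lifr and Gfra1 reached the filter's level in all 8 libraries and Gfra2 in 7. Merged exon lengths were from GENCODE vM21 (basic). Members, lists and the naming rule were chosen with earlier results of these data known. Named were all members, from each pathway list every called gene or else the one with the smallest p, and the 3 genes nearest in pattern to Cntfr, Prlr and Ret. Unnamed gene models were left out of that search for near genes. Any further gene named is an example picked with its values in view. The alternatives tried were DESeq2 1.42.0, total-count and median-ratio scaling, limma-voom 3.58.1 with quality weights, other filters, Y-linked and mesenchyme covariates, and each library left out.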

Additional observations from a re-analysis of the deposited data

Results flagged for a closer look

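A sample far from the other 3 of its group was seen in 8 of 66 groups examined (10 receptor genes and 23 other genes named with values, each in KO and Het). The cut used gives about 1 in 20 for normally distributed values. CPM values, some of them from few counts, need not be so distributed. Some genes were also picked with their values in view, so no excess is read from the 8. Among the receptors, Gfra4 stood at 1.28 CPM in KO replicate 17, with the next KO library at 0.219 CPM. KO replicate 8 stood apart for Socs3, at 69.9 CPM with the next KO library at 10.1 CPM, and for Ntrk2, at 133 CPM with the next at 35.7 CPM. Stat6 was at 42.0 CPM in KO replicate 9, with the next KO library at 27.4 CPM. Cntf was at 0.558 CPM in the same library, with the next at 0.0754 CPM. In Het, Il11 was at 12.3 CPM in replicate 6 (next 3.55 CPM), Socs2 at 11.6 CPM in replicate 7 (next 5.39 CPM) and Neurod1 at 210 CPM in replicate 19 (next 141 CPM).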

How the results depend on the processing

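The fold changes of the 8 tested receptor genes were recomputed 128 times. All lay within 1 SD between libraries of the reported value. That limit is wide: it passed Gfra2 at −0.57 without KO replicate 8, against 0.89. Leaving out a single library can hardly exceed it, so no stability is read from it. Of the 128 recomputed values, 119 kept the sign of the reported value. The 9 exceptions were Lifr in 5 settings, Gfra2 in 3 and Il6st in 1. Cntfr ran from −3.67 to −2.59, Prlr from −2.33 to −1.68, Gfra3 from −1.88 to −1.41 and Ret from −1.42 to −0.97. The 96 genes called lower and 48 called higher became 315 and 270 with DESeq2, 304 and 196 with limma-voom, 22 and 6 with the Y-linked covariate and 334 and 219 with the mesenchyme covariate. With a single library left out, lower calls ran from 26 to 188 and higher calls from 3 to 97, and 29 to 143 of the 144 calls were kept. The 143 were kept without KO replicate 8, and at most 62 without any other library. Of the pathway genes, none called in the fit reported, DESeq2 called 2 lower and 2 higher, limma-voom 4 lower and 1 higher, and the mesenchyme covariate gave 3 lower and 1 higher. With a library left out, 0 to 2 were called lower, the 2 without KO replicate 8, and 0 higher. Ccnd2, Il6ra and Stat6 were called by DESeq2, limma-voom and the mesenchyme covariate, Ntrk2 by limma-voom and that covariate, Gab1 by DESeq2 and Ghr by limma-voom. The cause was not tested. No paired analysis was possible because the genotypes share no replicate numbers. Counting error limits Osmr and Gfra4 most.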
